A study of Mus musculus with 2 samples.

Results

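Imprinted genes are transcribed mainly from the copy inherited from a given parent, and 40 of them were followed here in RNA pulled down with tagged ribosomes from the mouse ventral striatum. They were taken by name from a list of well-known imprinted genes. Of the 40 symbols, 38 were found among the 32531 gene symbols of the files, while Ddc-as1 and Zfp264 were not among them and are not analysed here. The mice were untreated adult controls of the Stard5-TRAP line JX5852, whose transgene Stard5-EGFP/Rpl10a puts the fluorescent tag EGFP on ribosomal protein L10a in cells that use Stard5 regulatory sequence. Tagged polysomes were captured from dissected ventral striatum with monoclonal antibodies to EGFP, a method called TRAP, for translating ribosome affinity purification. The 2 libraries, replicates 1 and 2, form a single group, with 25830282 and 29574781 reads in named genes. No input RNA, other genotype or treatment was analysed here, so values are levels and their spread, without enrichment over the tissue. Whether each replicate was a separate animal or a pool of animals is not stated, and p-values here measure differences between libraries that may be technical.

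In imprinted domains, methylation set in the egg or the sperm at a control region keeps a copy of each gene quiet according to the parent it came from. Many domains combine protein-coding genes of both parental types with a long noncoding RNA that acts on its neighbours in cis. In the brain, imprinted genes are known for roles in growth, feeding, sleep and maternal behaviour, and the Prader-Willi and Angelman syndromes arise from the domain that holds Snrpn, Ndn, Magel2 and Ube3a. Read counts per gene do not tell the parental copies apart, so the parental labels used below are background knowledge and not measurements.

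The striatal part of the tissue label was checked against markers of spiny projection neurons, the main striatal cell type. No list of markers separating ventral from dorsal striatum was used. Of the spiny neuron markers, 16 of 16 were detected, 15 of them at 100 CPM or more in both libraries. CPM is the number of reads per 1000000 reads in named genes, and detection required at least 1 CPM in each library. Astrocyte markers were also present, with 12 of 12 detected and a summed level of 1173 CPM in replicate 1 and 3510 CPM in replicate 2. In a bulk library, fewer cells of a type and less RNA per cell cannot be told apart.

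The start regions of 4 loci show how tightly some of these genes are packed. The first stretch is the whole interval between the annotated starts of Peg3 and Usp29, which are read in opposite directions, on chr7:6730420-6730582 (plus strand). These starts are those of RefSeq. The GENCODE starts, 6730431 for Peg3 and 6730578 for Usp29, fall just inside the interval. The interval spans 163 bases, and the capitals mark its 5 CG pairs, the substrate of DNA methylation. The next 3 are the 250 bases before an annotated start of Nap1l5 (chr6:58907127-58907376, minus strand), Mcts2 (chr2:152686898-152687147, plus strand) and Mest (chr6:30737800-30738049, plus strand), where capitals mark TGCCGC or its reverse complement GCGGCA, the core bound by ZFP57, a zinc finger protein that keeps methylation at imprinting control regions. Nap1l5 and Mcts2 are shown because each starts inside an intron of a host gene and holds the motif. Mest is shown because it holds the motif more than once. Zdbf2, not shown, also holds the motif more than once, with 3 matches in 1 of its 2 windows. Ndn, Magel2, Mkrn3 and Zrsr1, also not shown, lie inside an intron of another annotated gene, and their windows held no match. All sequences were read from the RefSeq promoter table of GRCm38.p6.
Peg3-Usp29 interval: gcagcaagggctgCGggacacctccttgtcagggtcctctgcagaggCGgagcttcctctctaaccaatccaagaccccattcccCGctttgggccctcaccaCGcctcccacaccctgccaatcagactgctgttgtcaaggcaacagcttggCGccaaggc
Nap1l5: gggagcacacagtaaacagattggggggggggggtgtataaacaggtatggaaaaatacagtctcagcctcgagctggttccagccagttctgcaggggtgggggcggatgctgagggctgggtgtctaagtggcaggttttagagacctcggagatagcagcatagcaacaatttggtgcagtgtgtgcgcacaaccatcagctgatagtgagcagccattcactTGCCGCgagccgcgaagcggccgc
Mcts2: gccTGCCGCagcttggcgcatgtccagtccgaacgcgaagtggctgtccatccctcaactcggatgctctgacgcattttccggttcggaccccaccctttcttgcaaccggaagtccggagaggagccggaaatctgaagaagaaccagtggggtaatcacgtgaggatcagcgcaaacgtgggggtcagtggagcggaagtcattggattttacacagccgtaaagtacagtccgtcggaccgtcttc
Mest: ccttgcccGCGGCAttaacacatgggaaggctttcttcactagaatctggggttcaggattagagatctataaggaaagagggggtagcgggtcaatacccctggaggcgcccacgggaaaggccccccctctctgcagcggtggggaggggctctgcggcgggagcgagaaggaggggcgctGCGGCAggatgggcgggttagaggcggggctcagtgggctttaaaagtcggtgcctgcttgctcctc

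The table held 40 start windows for 29 of the imprinted genes, and 8 of these windows (20%) held TGCCGC on either strand within the 250 bases before the start. Over all 32851 windows of the table the share was 8.68%. The motif holds a CG, and the median number of CG pairs was 10.5 in the former windows and 6 in all windows. The 7 genes with a match were Copg2, Mcts2, Mest, Nap1l5, Plagl1, Zdbf2 and Zim1, and 2 of the matching windows are overlapping starts of Mest. Peg13, Impact, H19, Cdkn1c, Zim3, Rtl1, Trappc9, Klf14, Nespas, Ddc-as1 and Zfp264 had no entry. A match is a description of the letters and not of a bound site.

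Of the 38 genes, 25 (65.8%) were detected, 19 reached 10 CPM and 11 (28.9%) reached 100 CPM in both libraries, where 38.0% of all symbols were detected, 24.0% reached 10 CPM and 5.89% reached 100 CPM. Together the 38 genes took 0.372% of the reads in named genes in replicate 1 (Clopper-Pearson 95% interval 0.370 to 0.374) and 0.453% in replicate 2 (0.450 to 0.455). Peg3 alone held 24.8% and 28.1% of these reads, and the highest 5 genes 63.7% and 64.3%. At 1 CPM or more, 25 of the genes were seen in replicate 1 and 31 in replicate 2.

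**Figure D1:**
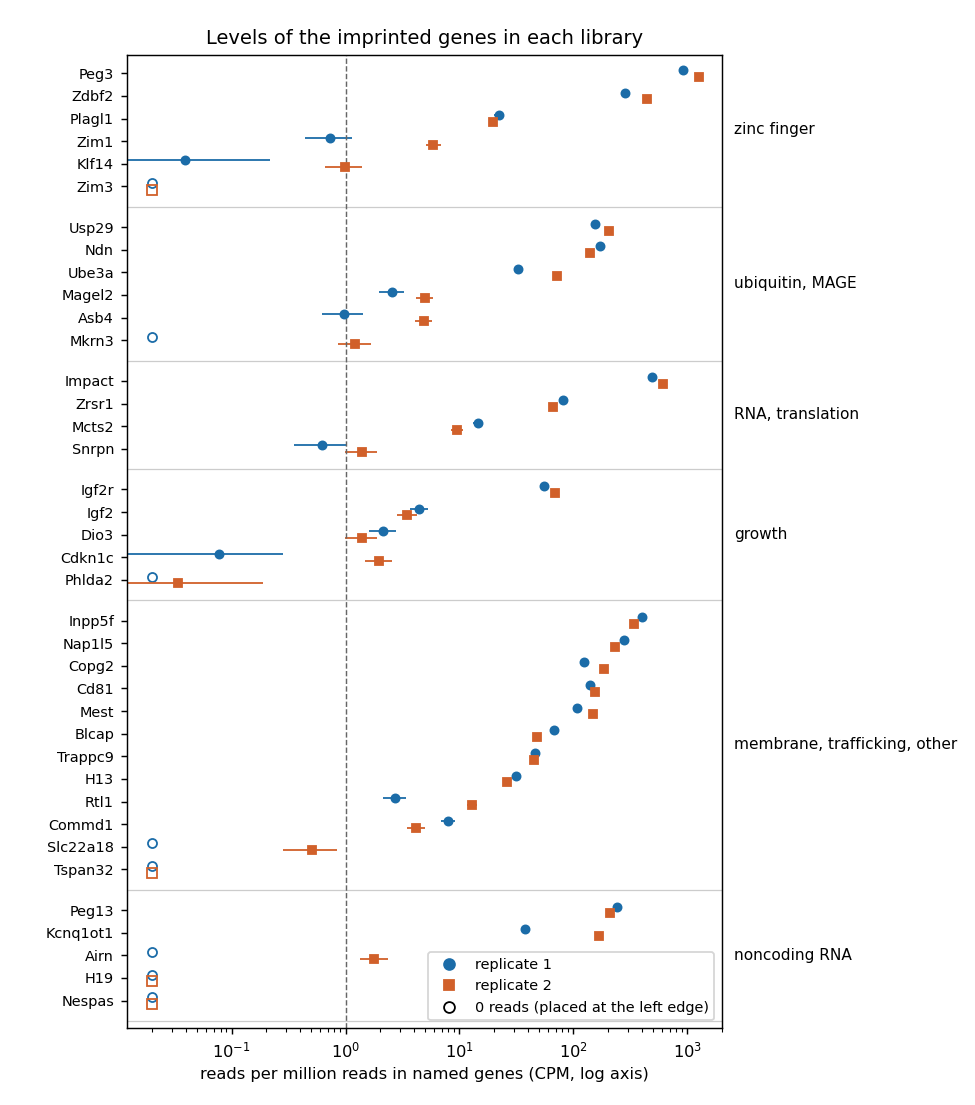
Level in CPM (log axis) of 38 imprinted genes, grouped by role, in replicate 1 (circles) and replicate 2 (squares), with exact Poisson 95% intervals for counting error. Open symbols mark 0 reads, and the dashed line is the detection threshold of 1 CPM. Peg3 is highest at 923 and 1273 CPM, and Zim3, H19, Tspan32 and Nespas have 0 reads in both libraries.

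Among zinc finger genes, Peg3 and Zdbf2 were abundant and the other 4 were low or at 0. Peg3, a large zinc finger protein known for effects on maternal care and growth (ENSMUSG00000002265, chromosome 7, 6703892 to 6730431, minus strand of GRCm38), had 23831 reads in replicate 1 and 37640 in replicate 2. These are 923 and 1273 CPM, a mean of 1098 ± 248 CPM (SD, n = 2), rank 73 of all symbols by reads. Zdbf2, which is known for a role in the hypothalamic control of feeding (chromosome 1, 63273265 to 63314576, plus strand), was at 285 and 448 CPM. Both genes were higher in replicate 2, by less than 2-fold. Plagl1, a zinc finger regulator of cell growth, was far lower, at 22.1 and 19.6 CPM. Zim1, the maternally expressed neighbour of Peg3, had 19 and 175 reads (0.736 and 5.92 CPM) and Klf14 had 1 and 29 reads. Zim3 had 0 reads in both libraries, where a floor of 3 reads corresponds to 0.116 CPM for replicate 1 and 0.101 CPM for replicate 2. Of its exon bases, 73.4% overlap other genes, mostly Usp29 on the opposite strand, so this limit does not cover the whole gene. These limits, like all intervals here, cover counting error alone.

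In the ubiquitin and MAGE group, Ndn and Usp29 were the most abundant per kilobase of exon, at 46.2 and 37.7 CPM per kilobase for Ndn and 8.58 and 11.3 for Usp29. Usp29, of the ubiquitin-specific protease family, stood at 155 and 204 CPM (179 ± 34.4, SD, n = 2). Ndn, a MAGE family protein of the Prader-Willi domain (chromosome 7, 62346569 to 62350262, plus strand), stood at 171 and 139 CPM (155 ± 22.3). Usp29 was higher in replicate 2 and Ndn in replicate 1, both by less than 2-fold. Ube3a, the ubiquitin ligase lost in Angelman syndrome and expressed from the maternal copy in neurons (chromosome 7, 59228750 to 59311536, plus strand), was at 32.5 and 71.6 CPM. Magel2, a further MAGE protein of that domain, was at 2.56 and 4.94 CPM. Asb4, a substrate adaptor of ubiquitin ligases, had 25 and 144 reads, and the ring finger gene Mkrn3 had 0 and 36 reads, so that neither was detected in both libraries.

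Among genes of RNA processing and translation, Impact was the most abundant per kilobase of exon, at 94.9 and 120.2 CPM per kilobase. Impact, an inhibitor of the translation regulator kinase GCN2 that is abundant in neurons, was at 487 and 616 CPM (552 ± 91.7, SD, n = 2). The retrogene Zrsr1, of the U2AF family of splicing factors, was at 80.8 and 65.8 CPM, and the retrogene Mcts2, related to a factor of translation reinitiation, at 14.6 and 9.60 CPM. Snrpn, which encodes the brain form of a spliceosome core protein, had 16 reads in replicate 1 and 41 in replicate 2 (0.619 and 1.39 CPM). Snurf, read from the same transcript as Snrpn, had 69 and 11 reads. Of the exon bases of Snrpn, 34.1% overlap other annotated genes, and all 216 exon bases of Snurf lie within Snrpn. HTSeq listed 1.84% and 2.08% of reads as ambiguous between genes and gave them to no gene, and how many of these came from Snrpn was not tested.

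The classic growth genes were low, apart from Igf2r. Igf2r, the receptor that removes IGF2 and sorts lysosomal enzymes, stood at 55.2 and 68.4 CPM (61.8 ± 9.33, SD, n = 2). Igf2, the fetal growth factor, had 115 and 103 reads (4.45 and 3.48 CPM). Dio3, which inactivates thyroid hormone, had 55 and 41 reads (2.13 and 1.39 CPM). Cdkn1c, an inhibitor of cell division, had 2 and 58 reads, and Phlda2 had 0 and 1 reads. In the adult brain Igf2 is known mainly from the choroid plexus, meninges and vessels. Of 10 markers of ependyma and choroid plexus, 3 reached detection, with a summed level of 151 CPM in replicate 1 and 224 CPM in replicate 2, and the defining markers Ttr, Folr1, Otx2, Ccdc153 and Tmem212 were at 0 reads in both. The 3 detected were Enpp2 (101 and 181 CPM), Clic6 (36.4 and 21.8) and Kl (12.7 and 20.5). Below detection, Foxj1 had 20 and 23 reads and Kcne2 had 0 and 18. Of 10 fibroblast and meningeal markers, 2 were detected, with summed levels of 6.31 and 9.64 CPM. For the vessels, 8 of 10 endothelial markers were detected (summed levels 40.7 and 29.7 CPM) and 4 of 8 mural markers (20.2 and 51.3 CPM). Their part in the Igf2 reads was not tested. Of the exon bases of Igf2, 62.8% are shared with the annotated gene Gm49394 on the same strand. Gm49394 is not among the symbols of the files, and genes that are overlap 1.71% of these bases.

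The group of membrane, trafficking and other genes had the largest share detected, 10 of 12, and 5 of them reached 100 CPM in both libraries. Inpp5f, a phosphoinositide phosphatase of the endocytic pathway, was at 399.9 and 341 CPM (371 ± 41.3, SD, n = 2). Nap1l5, of the nucleosome assembly protein family, was at 276 and 232 CPM. Copg2, a subunit of the COPI vesicle coat, was at 125 and 188 CPM, Cd81, a tetraspanin, at 140.2 and 156 CPM, and Mest, a hydrolase family member known from growth and maternal behaviour, at 109 and 149 CPM. Inpp5f and Nap1l5 were lower in replicate 2 and the other 3 were higher there, all by less than 2-fold. Blcap stood at 67.1 and 47.7 CPM, Trappc9, of a vesicle tethering complex, at 46.5 and 45.1 CPM, and H13, a signal peptide peptidase, at 31.4 and 26.3 CPM. Rtl1, a gene derived from a retrotransposon, had 70 and 384 reads, and Commd1, a copper and trafficking factor, had 205 and 123. Slc22a18 had 0 and 15 reads and Tspan32 0 in both.

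Of 5 noncoding RNAs, 2 were detected. Peg13, which lies in an intron of Trappc9 (chromosome 15, 72805600 to 72810324, minus strand), was at 241 and 211 CPM (226 ± 20.7, SD, n = 2). Kcnq1ot1, the antisense RNA that silences the Kcnq1 domain in cis (chromosome 7, 143203458 to 143296549, minus strand), was at 37.5 and 167 CPM. Airn, the antisense RNA of the Igf2r domain, had 0 reads in replicate 1 and 53 in replicate 2. H19 and Nespas had 0 reads in both libraries. Of the exon bases of Nespas, 38.5% overlap other annotated genes and 31.4% overlap genes among the symbols of the files.

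Per kilobase of annotated exon, which is the scale on which different genes can be compared, Nap1l5 led in both libraries at 149.9 and 126 CPM per kilobase (138 ± 16.9, SD, n = 2). Impact followed at 108 ± 17.9 and Peg3 at 82.4 ± 18.6 CPM per kilobase. The mean of Nap1l5 lay above those of 98.9% of detected genes with a known exon length. Nap1l5, Impact and Peg3 kept this order in both libraries. The next 4, Cd81 at 51.5 ± 4.0, Peg13 at 47.9 ± 4.39, Inpp5f at 44.5 ± 4.97 and Ndn at 41.9 ± 6.05, were closer together than their spread, neighbour by neighbour, and so were Mest, Copg2 and Zdbf2 at 32.6 ± 7.24, 30.6 ± 8.64 and 28.9 ± 9.10 CPM per kilobase. Kcnq1ot1, with 93092 exon bases, fell to place 21 at 0.403 and 1.80 CPM per kilobase. Of the 10 highest genes by CPM, 9 stayed among the highest 10 per kilobase.

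Genes usually expressed from the paternal copy stood higher than those usually expressed from the maternal copy. Of 20 paternal genes, 16 were detected and 8 reached 100 CPM in both libraries. Of 16 maternal genes, 8 were detected and 2, Copg2 and Cd81, reached 100 CPM in both. The median per kilobase was 5.70 CPM in replicate 1 and 6.52 in replicate 2 for the paternal genes, against 0.792 and 1.10 for the maternal genes and 0.431 and 0.595 for all symbols with a known length. The ranges overlapped, running from 0 to 138 CPM per kilobase in the paternal list and from 0 to 51.5 in the maternal list. No test was made, since the lists were drawn up with earlier results of these data known, and the imprinting of several maternal genes, among them Cd81, Copg2 and Igf2r, depends on tissue and stage. Zim3 and Inpp5f were placed in neither list.

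**Figure D2:**
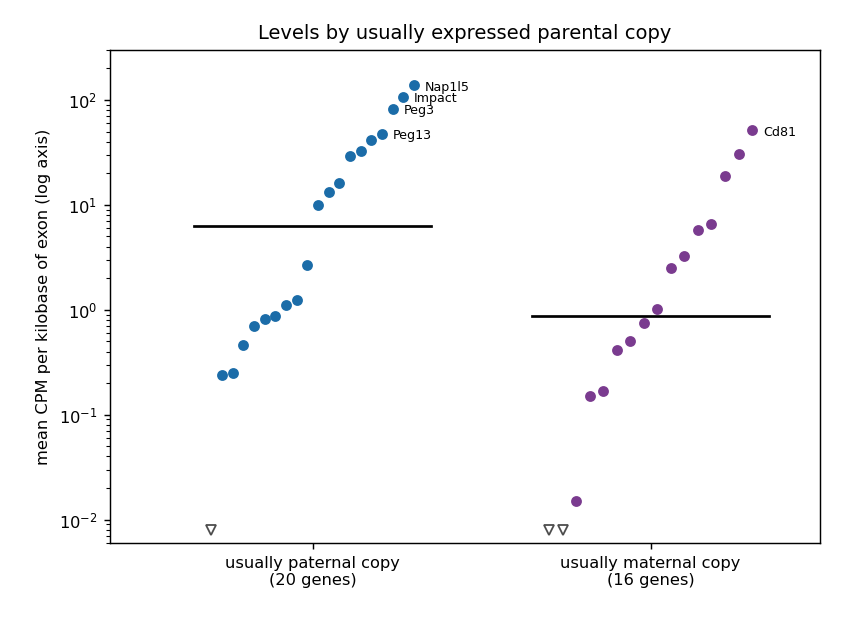
Mean level over the 2 libraries, in CPM per kilobase of exon on a log axis, of genes usually expressed from the paternal copy (20 points) or the maternal copy (16 points). Bars are list medians, 6.30 for paternal and 0.881 for maternal genes, open triangles at the lower edge are genes with 0 reads in both libraries, and names are given for the highest genes.

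Neighbours within a domain ranged from nearly equal to widely different in level, and several of these ratios were nearly the same in both libraries. Peg3 and Usp29, whose RefSeq starts bound the 163 bases printed above, kept a near-constant balance: per kilobase, Usp29 over Peg3 was -3.01 log2 units in replicate 1 (95% interval -3.06 to -2.96) and -3.08 in replicate 2 (-3.12 to -3.04). The intervals overlapped, and the mean was -3.05 ± 0.05 (SD, n = 2), so Peg3 stood 8.27-fold above Usp29. A small spread was not limited to neighbours. Impact, on chromosome 18, stood above Peg3 by 0.45 log2 units in replicate 1 and 0.33 in replicate 2 (mean 0.39 ± 0.09), though those intervals did not overlap. Zim1, on the far side of Peg3, had a ratio to Peg3 of -9.57 log2 units in replicate 1 and -7.03 in replicate 2, and these intervals did not overlap.

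In 5 chosen pairs of a gene and a larger gene that it lies within or across, the smaller gene stood above the larger. Zrsr1 was above Commd1 by 4.07 ± 0.45 log2 units per kilobase (mean ± SD, n = 2), Peg13 above Trappc9 by 3.05 ± 0.10, Nap1l5 above Herc3 by 2.84 ± 0.06, Nnat above Blcap by 2.13 ± 0.26 and Mcts2 above H13 by 2.0 ± 0.25. This does not hold for every overlapping pair: Nespas, which crosses Gnas, and Zim3, which crosses the end of Usp29, had 0 reads. For Peg13, Nap1l5 and Mcts2 the counting intervals of the libraries overlapped, and for Zrsr1 and Nnat they did not. Of the exon bases of Zrsr1, 9.17% are shared with Commd1 on the opposite strand, and Mcts2, Peg13 and Nap1l5 share none with their hosts. Mest and Copg2, whose ends overlap on opposite strands over 912 bases, were at nearly equal levels, with Mest above Copg2 by 0.17 log2 units in replicate 1 (0.10 to 0.24) and 0.04 in replicate 2 (-0.01 to 0.10).

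**Figure D3:**
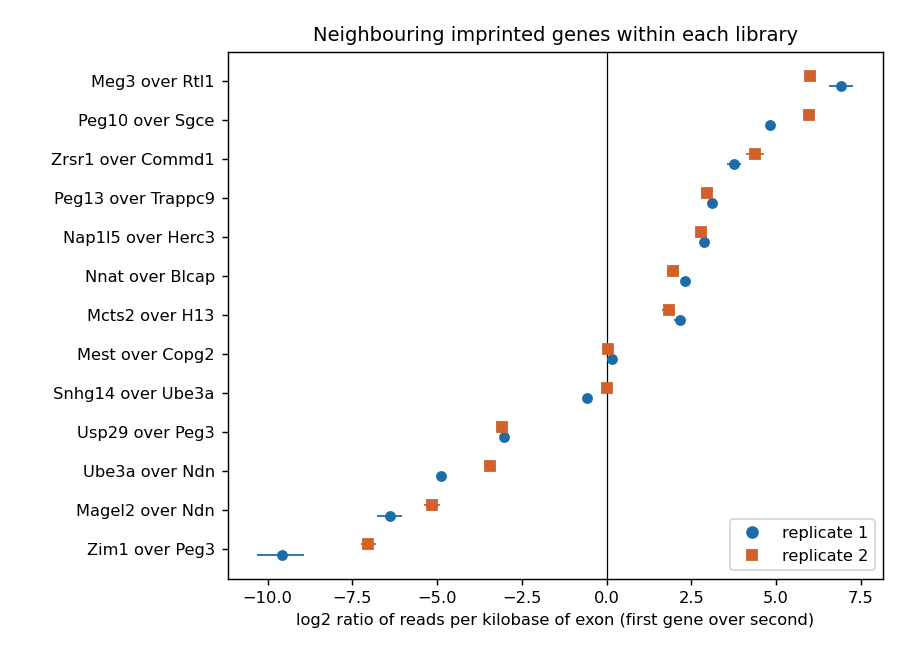
Log2 ratio of reads per kilobase of exon between neighbouring imprinted genes in replicate 1 (circles) and replicate 2 (squares), with exact binomial 95% intervals that cover counting error. Usp29 over Peg3 is near -3 in both libraries, while Zim1 over Peg3 and Ube3a over Ndn lie further right in replicate 2.

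In the Prader-Willi and Angelman domain the level fell from Ndn to Ube3a to Magel2 per kilobase. The ratio of Ube3a to Ndn was -4.88 log2 units in replicate 1 and -3.44 in replicate 2, and that of Magel2 to Ndn was -6.39 and -5.14. Snhg14, the long RNA that runs antisense to Ube3a and silences its paternal copy, stood at 27.8 and 90.6 CPM. Ube3a and Snhg14 share 1803 exon bases on opposite strands, 8.74% of those of Ube3a, and no source used here states the strand setting of HTSeq. How reads within the shared bases were counted is therefore not known. In all, 27.3% of the exon bases of Ube3a overlap other annotated genes, and 8.74% overlap genes among the symbols of the files.

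Between the replicates, most of the 25 detected genes differed by little. A 2-sided exact binomial test on TMM-scaled libraries was applied to each gene, with a Benjamini-Hochberg adjusted p below 0.05 over all 12374 detected genes and a ratio of at least 2-fold. This test compares 2 libraries of the same group and takes in counting error alone. Of the 25 genes, 3 passed with more reads in replicate 2 (background 9.57% of detected genes), a share near the background, and 0 with more in replicate 1 (background 7.78%). In either direction the background was 17.4%, and 21 of the 25 differed at an unadjusted p below 0.05, as did 79.9% of all detected genes. The median log2 ratio, replicate 2 over replicate 1, was -0.02 for the 25 genes and -0.00 for all detected genes, with 12 of the 25 above 0. Without the requirement of 2-fold, 12 genes passed toward replicate 2 and 9 toward replicate 1, where 39.1% and 39.8% of all detected genes did.

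The 3 genes past the rule were Rtl1, Kcnq1ot1 and Ube3a. Rtl1 had a log2 ratio of 2.29 (95% interval 1.92 to 2.68), Kcnq1ot1 of 2.18 (2.08 to 2.28) and Ube3a of 1.17 (1.05 to 1.28, adjusted p = 1.05e-94 in the binomial test). The next was Magel2 at 0.98 (0.55 to 1.42), just inside 2-fold, and at the other end Commd1 at -0.91 (-1.24 to -0.58). Peg13, also a noncoding RNA, had a ratio of -0.16. The domains of Rtl1 and Ube3a hold long noncoding RNAs that were also higher in replicate 2: Meg3 at 1.38, Rian at 1.16 and Mirg at 2.45 in the Dlk1-Dio3 domain of Rtl1, and Snhg14 at 1.73 beside Ube3a. Rtl1 is known to be covered by an antisense RNA from the maternal copy. In the same domain, the coding genes Dlk1 and Dio3 had ratios of -0.07 and -0.59.

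Some other RNAs moved in the same direction. Of 7 nuclear and long noncoding RNAs, which include Meg3, Rian and Mirg, 6 passed as higher in replicate 2, with Malat1 at 1.51, Snhg11 at 1.64 and Miat, below 2-fold, at 0.92. Of 12 astrocyte markers, 9 passed toward replicate 2 (median log2 ratio 1.59). Of 12 oligodendrocyte markers, 5 did (median 0.75). Microglial markers lay the other way, with 2 of 10 toward replicate 1 and 0 toward replicate 2 (median -0.50; 8 differed at an unadjusted p below 0.05 in the binomial test). All 9 detected interneuron, 4 detected glutamatergic and 4 detected mural markers had ratios above 0, as did 6158 of all 12374 detected genes. Of the 8 detected endothelial markers, 3 had ratios above 0 and 5 below (median -0.25). The 2 detected fibroblast and meningeal markers were below 0. Of the 3 detected ependymal and choroid plexus markers, 2 were above 0 and 1 below. The detection threshold left out Pvalb (58 and 15 reads), Cck (104 and 14) and Neurod1 (26 and 0), which were lower in replicate 2. Without it, 1 interneuron, 4 glutamatergic and 4 mural markers passed toward replicate 2, and 2, 1 and 0 toward replicate 1. Of all genes with a read, 20.3% and 10.3% did. Stard5, the gene whose regulatory sequence drives the transgene, had 166 and 54.9 CPM, with the lower value for replicate 2. Of 16 spiny neuron markers, 0 passed toward replicate 2 and 1, Tac1, toward replicate 1 (median -0.35; 15 of 16 differed at an unadjusted p below 0.05 in the binomial test). HTSeq gave no feature to 22.8% of its reads for replicate 1 and 31.0% for replicate 2, and set 27.9% and 13.6% aside as not uniquely aligned. The part of nuclear RNA or of RNA from other cell types in the ratios of Rtl1, Kcnq1ot1 and Ube3a was not tested.

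**Figure D4:**
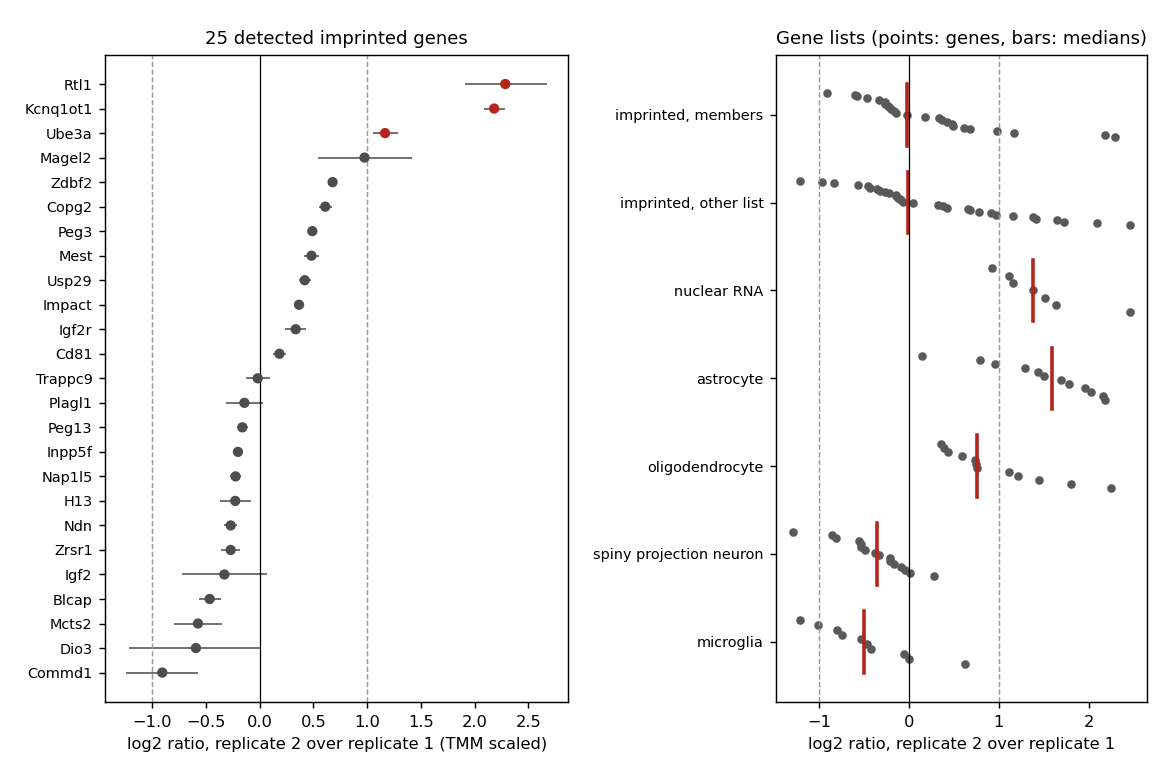
Left, log2 ratio of replicate 2 over replicate 1 (TMM scaled) of the 25 detected imprinted genes with exact 95% counting intervals; red points passed the binomial test with at least a 2-fold ratio. Right, the same ratio for gene lists, with points for detected genes and bars for medians; nuclear RNAs and astrocyte markers lie to the right of 0, while the imprinted genes are centred near 0.

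Of the 13 genes under the detection threshold, 9 had any read. Most of them fell short in replicate 1, so the threshold itself selects for a higher level in replicate 2, and the ratios are given as values without a count of calls. The same test without the threshold called 20.3% of all 18929 genes with a read toward replicate 2 and 10.3% toward replicate 1, and among genes with a read below detection 40.7% and 15.0%. In CPM, replicate 2 was above replicate 1 by 8.04-fold for Zim1 (95% interval 5.0 to 13.7), 5.03-fold for Asb4 (3.27 to 8.03) and 2.24-fold for Snrpn (1.23 to 4.27). Phlda2 had 0 and 1 reads, too few for a ratio. Cdkn1c, with 2 and 58 reads, had a ratio of 25.3 (6.70 to 214), and Klf14, with 1 and 29, a ratio of 25.3 (4.20 to 1034). Airn, Mkrn3 and Slc22a18 also had 0 reads in replicate 1. With a floor of 3 reads put in place of that 0, replicate 2 stood 15.4-fold higher for Airn, 10.5-fold for Mkrn3 and 4.37-fold for Slc22a18. The exact 95% lower limits of the TMM-scaled ratios of these genes lay below those folds, at 3.62, 3.04 and 1.67 log2 units. At this depth a read count of 0 does not show absence.

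A second list of 40 genes, taken as imprinted from background knowledge and of which 39 were found, was measured in the same way. Whether each of them is imprinted in this tissue was not measured. Of the 39 genes, 32 (82.1%) were detected and 11 reached 100 CPM in both libraries. By reads, the highest 6 began with Ppp1r9a, which encodes the actin-binding synaptic protein neurabin, at 1566 and 2421 CPM, Meg3 at 927 and 2367 CPM, and Peg10, derived from a retrotransposon like Rtl1, at 866 and 1362 CPM. Gnas, the stimulatory G protein subunit gene, was at 974 and 902 CPM, Rasgrf1, an exchange factor of Ras, at 756 and 999 CPM and Ago2, of the small RNA silencing complex, at 475 and 387 CPM. Kcnq1, Ins2, Slc22a2 and Sct had 0 reads in both libraries. Per kilobase of exon the order was another, led by Peg10 at 167 ± 52.6 CPM per kilobase (SD, n = 2), Ppp1r9a at 137 ± 41.6, Meg3 at 91.1 ± 56.3 and Nnat at 85.2 ± 34.8, while Ago2 stood at 30.7 ± 4.44. Per kilobase, Peg10 stood above its neighbour Sgce by 5.40 ± 0.80 log2 units (SD, n = 2). Between the replicates, 7 of the 32 passed toward replicate 2 and 1, Bcl2l1, toward replicate 1 (median log2 ratio -0.01), beside 9.57% and 7.78% of all detected genes. The 7 were Meg3, Rian, Mirg, Snhg14, Phactr2, Calcr and Kcnk9.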

How the data were processed

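The authors deposited raw read counts per gene symbol for 2 libraries. STAR 2.0.0e, HTSeq and the mouse build mm10 are named in the submitters' processing notes. No source used here gives the annotation, strand setting or read filters. Totals exclude 6 lines without a gene name, 5 of them HTSeq summary lines. CPM was computed over named genes. Intervals are exact Poisson (levels) or Clopper-Pearson (shares) at 95%, and the floor is 3 reads. Exon lengths, overlaps and coordinates came from GENCODE M21 of GRCm38, matched by symbol, and 38 of 38 genes had a length. The exons counted upstream may differ. Detection needed 25.8 reads in replicate 1 and 29.6 in replicate 2. Between libraries, reads were tested by an exact binomial test with TMM factors from edgeR 4.0.16, with size factors from DESeq2 1.42.0 as an alternative. The test was first run on simulated Poisson counts without spread between libraries, which does not show how it behaves where such spread exists. Each imprinted gene found is given, with the 6 highest and the lowest of the second list and defining markers at 0. Other genes of the second list, Snhg11, Miat and Tac1 were named after their values were seen. The genes and lists were chosen with earlier results of these data known.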

Additional observations from a re-analysis of the deposited data

How the results depend on the processing

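The number of imprinted genes detected was 28 at a threshold of 0.5 CPM and 20 at 5 CPM, against 25 at 1 CPM. With either replicate left out it ranged from 25 to 31, and the median log2(CPM + 1) of the 38 genes from 4.09 to 4.24, against 4.07 with both. Between the libraries, 0 genes higher in replicate 1 and 3 higher in replicate 2 became 1 and 6 with a ratio of at least 1.5-fold and 9 and 12 with no fold required. Without a filter on low counts 0 and 11 passed, because genes with few reads entered the test. Over all genes the calls then changed from 963 and 1184 to 1947 and 3849 without the filter, 2343 and 2394 at 1.5-fold and 4928 and 4833 with no fold required. Library totals alone, DESeq2 size factors, upper quartile scaling and a filter at a mean of 5 CPM left 0 and 3. Of the log2 ratios of the 25 genes under 5 alternatives, 121 kept their sign and their side of the rule and 1 changed sign. The latter was that of Trappc9 with upper quartile scaling, at 0.000285, which is within counting error of 0. A change of filter leaves the ratios themselves as they were, and a change of scaling shifts all of them by the same amount. This stability was therefore largely fixed in advance. No paired analysis was possible because there is 1 group. Depth limits the genes below the detection threshold, among them Mkrn3, Klf14 and Slc22a18, most.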

Other observations

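The parent copies of 2 retrogenes and a close relative of Snrpn, chosen after the data were seen, were also measured. Mcts1, the X-linked parent of Mcts2, had 353 reads in replicate 1 and 295 in replicate 2 (13.7 and 9.97 CPM), beside 376 and 284 reads for Mcts2. Zrsr2, the parent of Zrsr1, had 1909 and 1196 reads (73.9 and 40.4 CPM), beside 2086 and 1946 for Zrsr1. Of the stretches of 50 bases in the transcripts of Mcts2, 0.695% also occur in an annotated transcript of another gene, and for Zrsr1 7.13%, which is also the share found in Commd1. Snrpb, which encodes a protein close to that of Snrpn, was at 8.25 and 5.07 CPM.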
